A study of Mus musculus with 14 samples.

Results

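Transcripts of 8 growth factor genes with known roles in lung fibrosis were followed in sorted mouse lung macrophages: the platelet-derived growth factor genes Pdgfa, Pdgfb and Pdgfc, and Igf1, Tgfb1, Vegfa, Areg and Hbegf. They were chosen by name, and each was found once among the 43432 genes of the deposited table. The cells came from male 129S1 mice aged 10 to 12 weeks, which had received bleomycin (labelled dose 3 U/k) or water into the trachea. Bleomycin damages DNA and leaves a fibrotic lung when given by this route. SiglecF+ CD11c+ cells, the surface pattern of alveolar macrophages, were sorted into cells with high or low MHC class II (MHCII). RNA-seq libraries of both MHCII levels were made 2 and 4 weeks after the drug, 3 per level and week. Controls were 2 libraries of MHCII-low cells from water-treated mice, while no MHCII-high controls enter the comparisons made here. No transgene or deletion is given in the labels, and they do not say whether the replicates of a group came from separate animals, so p-values measure the spread between these samples, which may be technical.

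Macrophages are a known source of ligands for the mesenchyme of an injured lung. PDGF chains form dimers that bind the receptors PDGFRA and PDGFRB on fibroblasts and drive their migration and division. IGF-1 signals through IGF1R and promotes survival and matrix production. TGF-beta 1 is secreted in a latent complex and becomes active only after release, for example by integrins, so its transcript level is not a measure of active ligand. VEGF-A acts on endothelial cells, and amphiregulin (Areg) and HB-EGF are membrane-anchored ligands of the EGF receptor that are shed by proteases.

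The sort genes were read in every library, but Siglecf was lower in MHCII-high cells. It lay between 3056.4 and 4358.1 normalized counts in MHCII-high and between 6460.9 and 9550.6 in MHCII-low libraries, controls included. Itgax, which encodes CD11c, lay between 25185 and 44133.2, with overlap of the MHCII levels. Recovered depth per library ranged from 15106415 to 88059626 reads, and the shallowest library was of 4-week MHCII-high cells. Mitochondrial ribosomal RNA took 3.12% to 29% of the reads, with 3.42% to 18.3% in 2-week MHCII-low and 22.5% to 26.2% in 2-week MHCII-high libraries. On the second principal component 1 library, 4-week MHCII-high replicate 3, had a score of 146 and was far from the remaining 13 (-73.5 to 44.7). Growth factor results that rest on it are given with and without it, and pathway gene calls that ended without it are named.

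Igf1 and Pdgfa were the 2 growth factors that rose in MHCII-high cells, so the sequences just before their start sites are shown. The windows are from RefSeq on the build GRCm38.p6, run from 250 bases before to 50 bases after an annotated start, and read in the direction of the gene. The Igf1 window is chr10:87860861-87861160 on the forward strand. The Pdgfa windows, for 2 annotated starts, are chr5:138994232-138994531 and chr5:138994895-138995194 on the reverse strand. Capitals mark matches on either strand to GAGGAA, the core bound by the myeloid factor PU.1, to the AP-1 site TGANTCA, and to the GC box GGGCGG.
Igf1: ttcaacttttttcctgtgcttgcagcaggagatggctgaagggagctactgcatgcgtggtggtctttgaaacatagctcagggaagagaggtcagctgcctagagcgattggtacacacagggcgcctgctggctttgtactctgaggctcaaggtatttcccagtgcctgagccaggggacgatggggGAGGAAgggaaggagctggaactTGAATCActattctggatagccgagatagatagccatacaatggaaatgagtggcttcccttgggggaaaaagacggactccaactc
Pdgfa, inner start: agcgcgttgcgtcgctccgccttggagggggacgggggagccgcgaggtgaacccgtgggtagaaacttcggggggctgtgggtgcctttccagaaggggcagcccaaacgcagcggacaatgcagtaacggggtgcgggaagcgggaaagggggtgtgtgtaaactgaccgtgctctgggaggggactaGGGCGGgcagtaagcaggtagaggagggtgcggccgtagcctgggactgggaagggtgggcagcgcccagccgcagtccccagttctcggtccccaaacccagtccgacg
Pdgfa, outer start: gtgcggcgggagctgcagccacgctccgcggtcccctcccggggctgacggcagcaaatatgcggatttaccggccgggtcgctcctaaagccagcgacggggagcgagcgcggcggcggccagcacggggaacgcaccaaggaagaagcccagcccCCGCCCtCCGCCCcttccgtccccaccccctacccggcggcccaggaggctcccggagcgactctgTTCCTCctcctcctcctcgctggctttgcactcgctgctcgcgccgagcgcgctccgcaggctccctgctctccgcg
In the Igf1 window GAGGAA matched at bases 191 to 196 and TGANTCA at bases 214 to 220, and no GC box was found. The inner Pdgfa window held 1 GC box. The outer one held 2 GC boxes, both on the opposite strand, and the PU.1 core on the opposite strand at bases 224 to 229. Of 32851 RefSeq mouse promoter windows of this length, 28.3% held GAGGAA, 7.81% TGANTCA and 35.7% GGGCGG, so the PU.1 core and the GC box are common letters. No match on either strand was found in these 3 windows for the TATA box TATAAA, which 13.6% of all windows hold, or for the cyclic AMP response element TGACGTCA (1.79%). The same held for the E-box CACGTG (7.15%) and for the SMAD site CAGAC (49.6%). The matches in capitals do not overlap each other, and no binding was measured.

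Scaled by exon length, Tgfb1 was the most abundant of the 8 transcripts in each of the 5 groups, and the EGF receptor ligands were among the least abundant. In control cells Tgfb1 stood at 2890 ± 179 normalized counts per kilobase (SD, n = 2), Pdgfc at 417 ± 37.9 and Igf1 at 311 ± 23.6. Below them came Pdgfb at 37.1 ± 7.39, Vegfa at 18.9 ± 3.24, Hbegf at 12.3 ± 13.9, Pdgfa at 10 ± 4.96 and Areg at 5.75 ± 6.13. Those last 3 did not differ beyond their spread. In 2-week MHCII-high cells Igf1 had passed Pdgfc, at 1080 ± 188 against 343 ± 21.7 per kilobase (n = 3), and Pdgfa, at 139 ± 33.4, lay above Vegfa (59.3 ± 34.3) and Pdgfb (55.1 ± 6.98). In the 4-week MHCII-low cells Igf1 (399 ± 112) and Pdgfc (438 ± 8.43) could not be ordered beyond their spread.

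**Figure D1:**
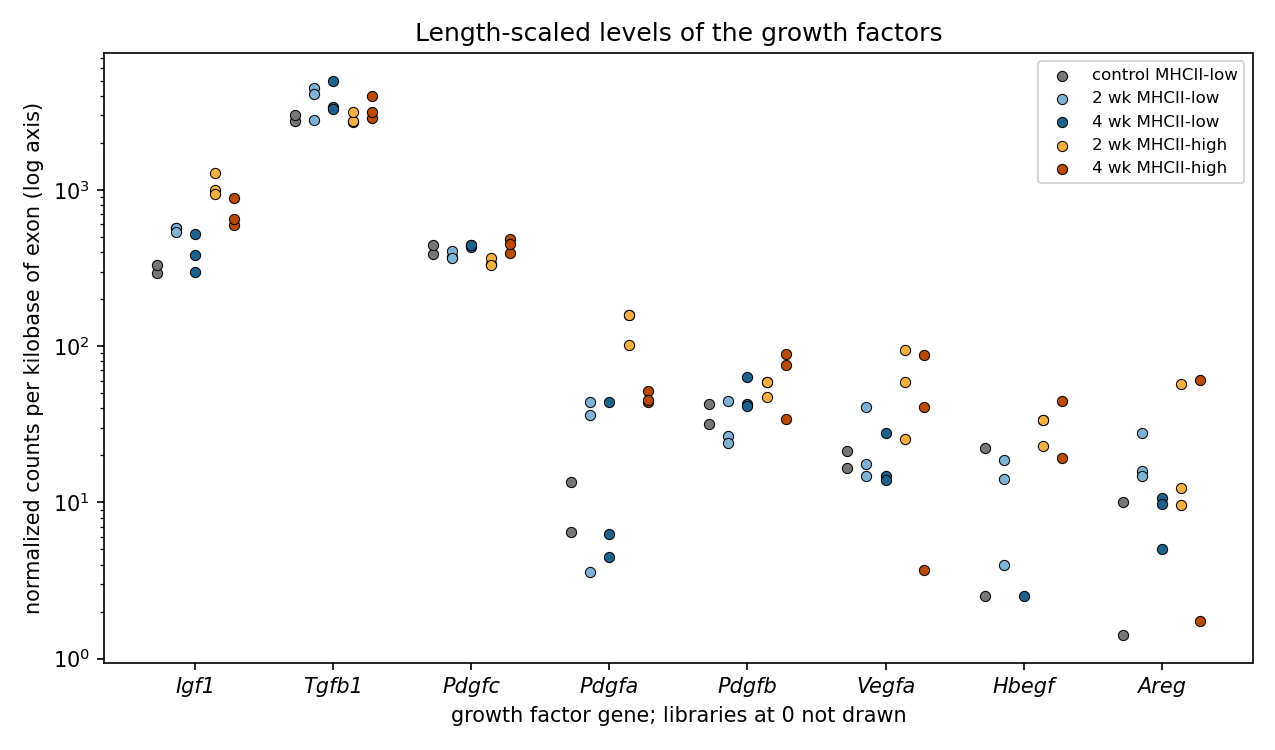
Normalized counts per kilobase of exon (log axis) of the 8 growth factor genes; each point is a library, coloured by group, and libraries at 0 are not drawn. Tgfb1 lies highest in each group, and Igf1 reaches its highest level in 2-week MHCII-high cells (mean 1080).

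Igf1 (ENSMUSG00000020053, chr10:87858265-87937042, forward strand) was the growth factor with the most even separation of the groups. Its normalized counts were 2913.7 and 3243.9 in the controls, 5651.7, 5651.3 and 5334.9 in 2-week MHCII-low cells, and 2944, 3762.8 and 5135.7 in 4-week MHCII-low cells. The MHCII-high libraries read 9884.1, 9341.1 and 12806.1 at 2 weeks and 5864.9, 6486 and 8804.7 at 4 weeks. Each MHCII-high library lay above each MHCII-low library, controls included. The 2-week groups were close among themselves, while the 4-week MHCII-low libraries spanned from the control level almost to the 2-week level. In bulk RNA of sorted cells, a change in which cells were present and a change in RNA per cell cannot be told apart.

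Against MHCII-low cells of the same week, Igf1 rose 1.91-fold at 2 weeks (log2 fold change 0.93 ± 0.19, SE; adjusted p = 0.0092, limma with Benjamini-Hochberg adjustment over all genes tested) and 1.81-fold at 4 weeks (0.85 ± 0.19, adjusted p = 0.018). The mean of both weeks was 0.89 ± 0.14 (adjusted p = 2e-04), and it stayed past the threshold under all 21 alternatives tried, with adjusted p up to 0.0093. The single weeks were less firm. With the mitochondrial rRNA share as a covariate the adjusted p was 0.091 at 2 weeks and 0.067 at 4 weeks, and without replicate 3 of the MHCII-high cells it was 0.054 at 2 weeks (0.79 ± 0.21) and 0.09 at 4 weeks (0.68 ± 0.2). With the GC trend removed, which moved the median of all genes by -0.33 at 2 weeks, the 2-week value was 0.61 ± 0.21 (adjusted p = 0.066). The 4-week call also ended without MHCII-low replicate 1 (adjusted p = 0.12) or replicate 2 (0.065).

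After bleomycin, Igf1 in MHCII-low cells was 1.8-fold higher at 2 weeks than in controls (0.85 ± 0.22, adjusted p = 0.045), with no overlap of the libraries. That p lay close to the threshold: leaving out any 1 of the 5 libraries gave values of 0.77 to 0.93 with adjusted p from 0.092 (2-week MHCII-low replicate 3) to 0.36 (control replicate 1). At 4 weeks the difference from controls was 0.32 ± 0.22 (adjusted p = 0.9). From 2 to 4 weeks the fitted Igf1 difference was -0.53 ± 0.19 in MHCII-low cells (adjusted p = 0.39) and -0.61 ± 0.19 in MHCII-high cells (adjusted p = 0.14). The 2- and 4-week libraries did not overlap within either MHCII level, but neither difference passed the test.

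**Figure D2:**
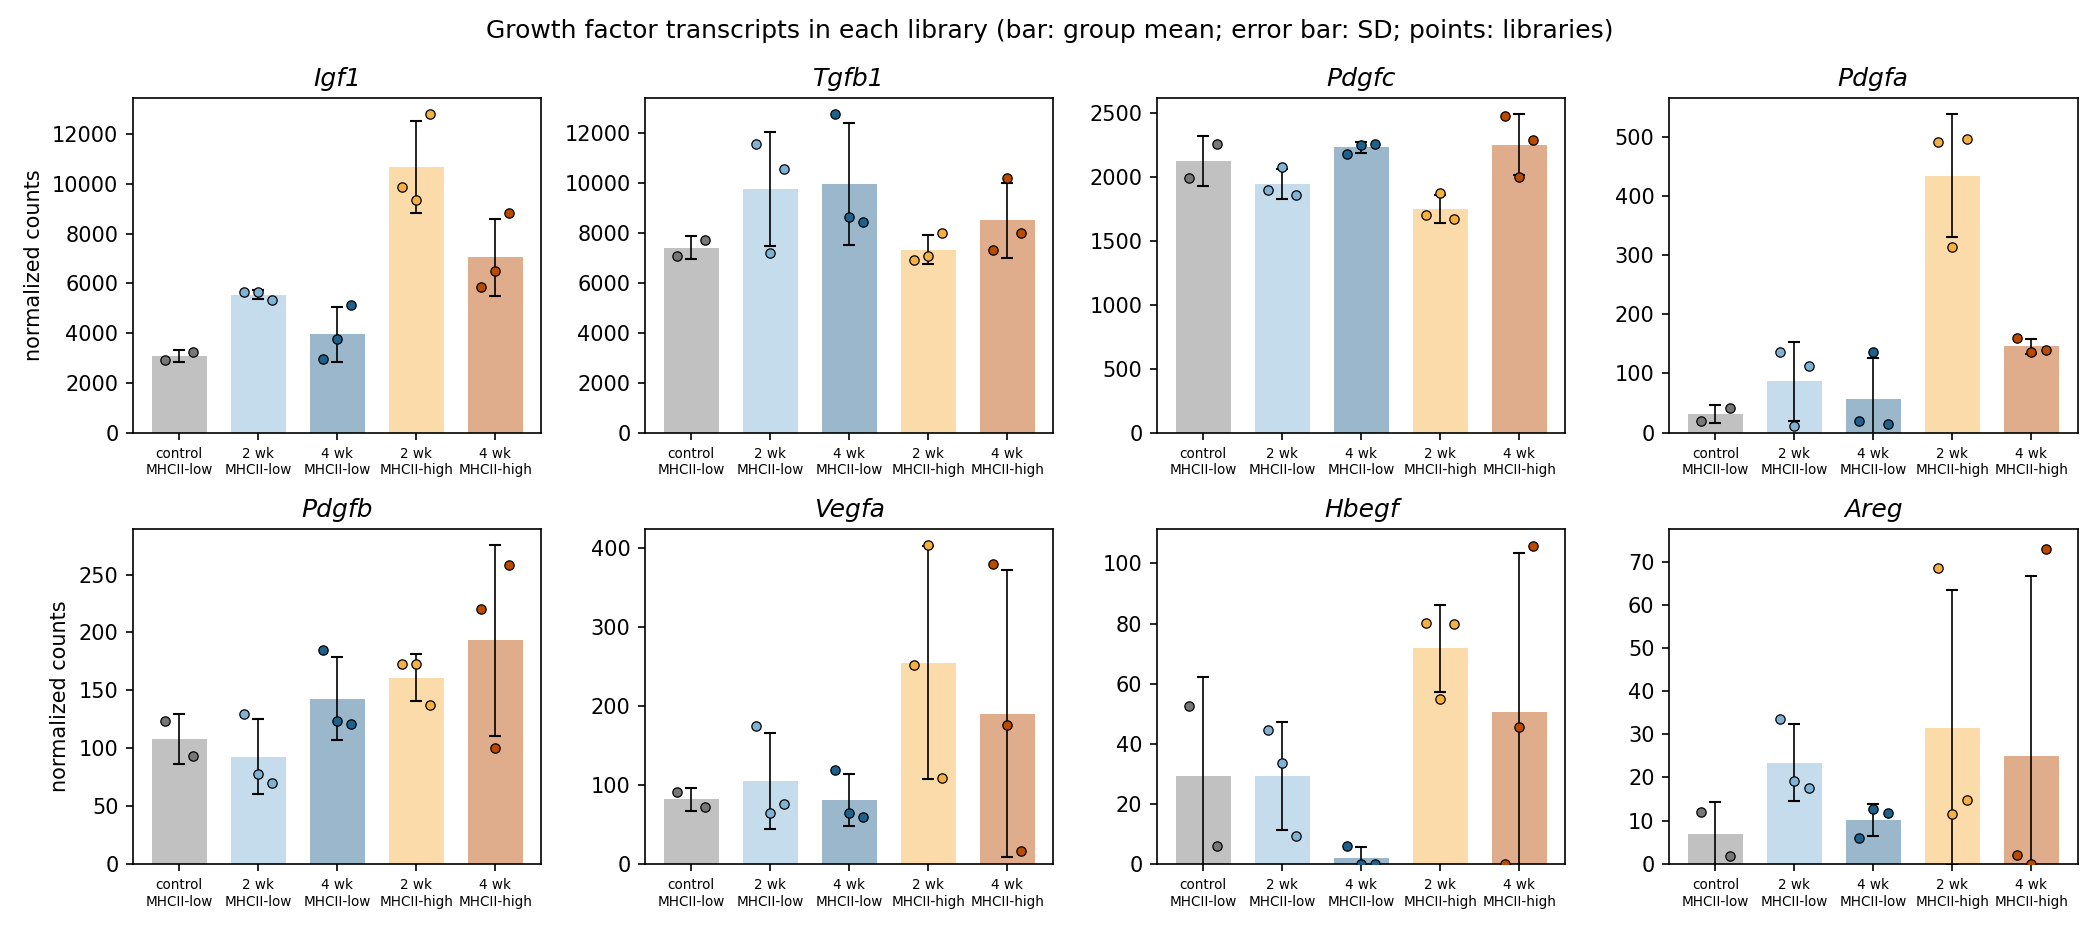
Normalized counts of the 8 growth factor genes in the 14 libraries (points), with group means (bars) and SD (error bars, cut off at 0); each panel has its own axis. The 6 MHCII-high libraries of Igf1 lie above the 8 MHCII-low libraries, and those of Pdgfa lie above the MHCII-low libraries of the same week.

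Pdgfa (ENSMUSG00000025856, chr5:138976014-138997370, reverse strand), which encodes the PDGF-A chain, was a low transcript that was higher in MHCII-high cells. It read 20.3 and 42.2 normalized counts in the controls, 136.5, 11.1 and 112.3 in 2-week MHCII-low cells and 19.7, 136.3 and 13.9 in 4-week MHCII-low cells. In MHCII-high cells the values were 491.9, 313.7 and 496.1 at 2 weeks and 160.3, 136.5 and 140 at 4 weeks. The 2-week groups were well separated, while the lowest 4-week MHCII-high library (136.5) only just exceeded the highest MHCII-low one (136.3). These values rest on 7 to 204 reads in 2-week MHCII-low libraries and on 383 to 956 in 2-week MHCII-high libraries.

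Over both weeks Pdgfa rose 5.58-fold in MHCII-high against MHCII-low cells (2.48 ± 0.59, adjusted p = 0.012), and the value was 2.49 ± 0.63 (adjusted p = 0.018) without the library that stands apart. With the mitochondrial rRNA share as a covariate the call ended (2.24 ± 0.77, adjusted p = 0.15). Within the weeks the fitted differences were 2.89 ± 0.84 at 2 weeks (adjusted p = 0.069) and 2.07 ± 0.84 at 4 weeks (adjusted p = 0.24). The 2-week value passed with a pseudocount of 8 (2.64, adjusted p = 0.047) and in DESeq2 on recovered reads (2.32, adjusted p = 0.033). In MHCII-high cells the 4-week libraries all lay below the 2-week ones, with a difference of -1.54 ± 0.84 that missed the threshold (adjusted p = 0.43). Against controls Pdgfa in MHCII-low cells differed by 0.92 ± 0.94 at 2 weeks (adjusted p = 0.77) and 0.2 ± 0.94 at 4 weeks (adjusted p = 1). The antisense gene 6330403L08Rik shares 813 exon bases with Pdgfa, 26.1% of its exon length. It is listed between 0 and 194.1 normalized counts, and without a statement on strand, reads in the shared bases cannot be told apart.

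The other PDGF genes did not pass the test in any of the 8 comparisons. Pdgfb (ENSMUSG00000000489, chr15:79995900-80014808, reverse strand), the B chain, read 123.5 and 93 normalized counts in controls, 129.8, 78 and 69.9 in 2-week and 184.4, 123.5 and 120.5 in 4-week MHCII-low cells. In MHCII-high cells it read 172.4, 172.8 and 137.3 at 2 weeks and 220.6, 100.4 and 258 at 4 weeks. At 2 weeks the MHCII-high libraries lay above the MHCII-low ones by a fitted 0.84 ± 0.48 (adjusted p = 0.43, 95% interval -0.16 to 1.83), and at 4 weeks the groups overlapped (0.35 ± 0.48, adjusted p = 0.79).

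Pdgfc (ENSMUSG00000028019, chr3:81036416-81214040, forward strand) encodes a PDGF chain that needs proteolytic removal of a CUB domain to bind its receptor, and it was the steadiest member. It read 1987.4 and 2259.9 normalized counts in controls, and its other libraries lay between 1669.8 (2-week MHCII-high) and 2472.5 (4-week MHCII-high). The MHCII-high cells differed from MHCII-low cells by -0.15 ± 0.16 at 2 weeks (95% interval -0.49 to 0.19) and 0.01 ± 0.16 at 4 weeks (-0.33 to 0.35), with adjusted p of 0.73 and 1. Both upper bounds lie under a log2 difference of 1. After removal of the trend with GC content the 2-week value was -0.59 ± 0.18 (adjusted p = 0.042), a setting that moved the median of all genes by -0.33. Its antisense neighbour Gm16000 shares 2.89% of the Pdgfc exon length.

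Tgfb1 (ENSMUSG00000002603, chr7:25687002-25705077, forward strand) was abundant in each group and passed no test. Its normalized counts were 7075.6 and 7724.9 in controls, 11545.1, 7191.2 and 10553.6 in 2-week MHCII-low cells and 12768.2, 8654.1 and 8423.7 in 4-week MHCII-low cells. The MHCII-high libraries read 6910.6, 7065.4 and 7998.1 at 2 weeks and 7315.5, 10185.6 and 8009.9 at 4 weeks. MHCII-high and MHCII-low libraries overlapped at both weeks, and the mean difference was -0.3 ± 0.14 (adjusted p = 0.2, 95% interval -0.58 to -0.02). Against controls, MHCII-low cells differed by 0.37 ± 0.21 at 2 weeks (adjusted p = 0.52) and 0.4 ± 0.21 at 4 weeks (adjusted p = 0.85). With the GC trend removed the 2-week difference between MHCII levels was -0.67 ± 0.2 (adjusted p = 0.036), again beside the median shift of -0.33.

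Vegfa (ENSMUSG00000023951, chr17:46016993-46032369, reverse strand), the endothelial growth factor, varied most among the libraries of MHCII-high cells. It read 91.2 and 71.5 normalized counts in controls, 174.5, 63.7 and 75.4 in 2-week and 118.3, 63.7 and 59.7 in 4-week MHCII-low cells. In MHCII-high cells the values were 251.6, 403 and 108.6 at 2 weeks and 378.8, 175.7 and 15.8 at 4 weeks, and the groups overlapped at both weeks. The lowest value, 15.8, is that of the library that stands apart. Over both weeks the difference was 0.83 ± 0.58 (adjusted p = 0.45) with that library and 1.48 ± 0.41 (adjusted p = 0.033) without it.

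Hbegf (ENSMUSG00000024486, chr18:36504929-36515805, reverse strand) was a low transcript with several libraries at or near 0. It read 52.6 and 6 normalized counts in controls, 44.7, 33.4 and 9.4 in 2-week MHCII-low cells and 6, 0 and 0 in 4-week MHCII-low cells. The MHCII-high libraries read 80.3, 54.9 and 79.9 at 2 weeks and 0, 45.5 and 105.9 at 4 weeks. At 2 weeks the MHCII-high libraries lay above the MHCII-low ones, and at 4 weeks MHCII-high replicate 1, at 0, overlapped with them. A count of 0 allows up to 2.94 and 3.2 normalized counts (3 reads) in the MHCII-low libraries and 6.24 in that MHCII-high library, for counting error only. The fitted differences, which depend on the pseudocount at such levels, were 1.5 ± 1.4 at 2 weeks (adjusted p = 0.68) and 3.16 ± 1.4 at 4 weeks (adjusted p = 0.29). The 4-week value passed in DESeq2 (4.62, adjusted p = 0.019) and without MHCII-high replicate 1 (5.2 ± 1.15, adjusted p = 0.016), and it was 1.83 ± 1.44 (adjusted p = 0.59) without the library that stands apart. The mean of both weeks, 2.33 ± 0.99 (adjusted p = 0.17), behaved alike, at 2.96 in DESeq2 (adjusted p = 0.017), 3.35 ± 0.77 without 4-week MHCII-high replicate 1 (adjusted p = 0.01) and 1.67 ± 0.96 (adjusted p = 0.33) without replicate 3.

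Areg (ENSMUSG00000029378, chr5:91139599-91148432, forward strand) was the lowest transcript over the 14 libraries, with a mean of 20.31 normalized counts. It read 12.1 and 1.7 in controls, 33.6, 19.1 and 17.6 in 2-week MHCII-low cells, 6, 12.7 and 11.7 in 4-week MHCII-low cells, 68.4, 11.5 and 14.8 in 2-week MHCII-high cells, and 2.1, 0 and 73 in 4-week MHCII-high cells. Each MHCII-high group had 1 library far above its other 2, and the highest value, 73, belonged to the library that stands apart. No Areg comparison passed the test. At 2 weeks the MHCII-low libraries lay above the controls (1.98 ± 1.46, adjusted p = 0.64), and the MHCII levels differed by 0.03 ± 1.31 (adjusted p = 1). At 4 weeks they differed by -0.8 ± 1.31 (adjusted p = 0.83), and by -2.6 ± 1.17 (adjusted p = 0.29) without the library that stands apart. Its values rest on 0 to 133 reads per library, and the SE of its fitted differences was 0.92 to 1.85.

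**Figure D3:**
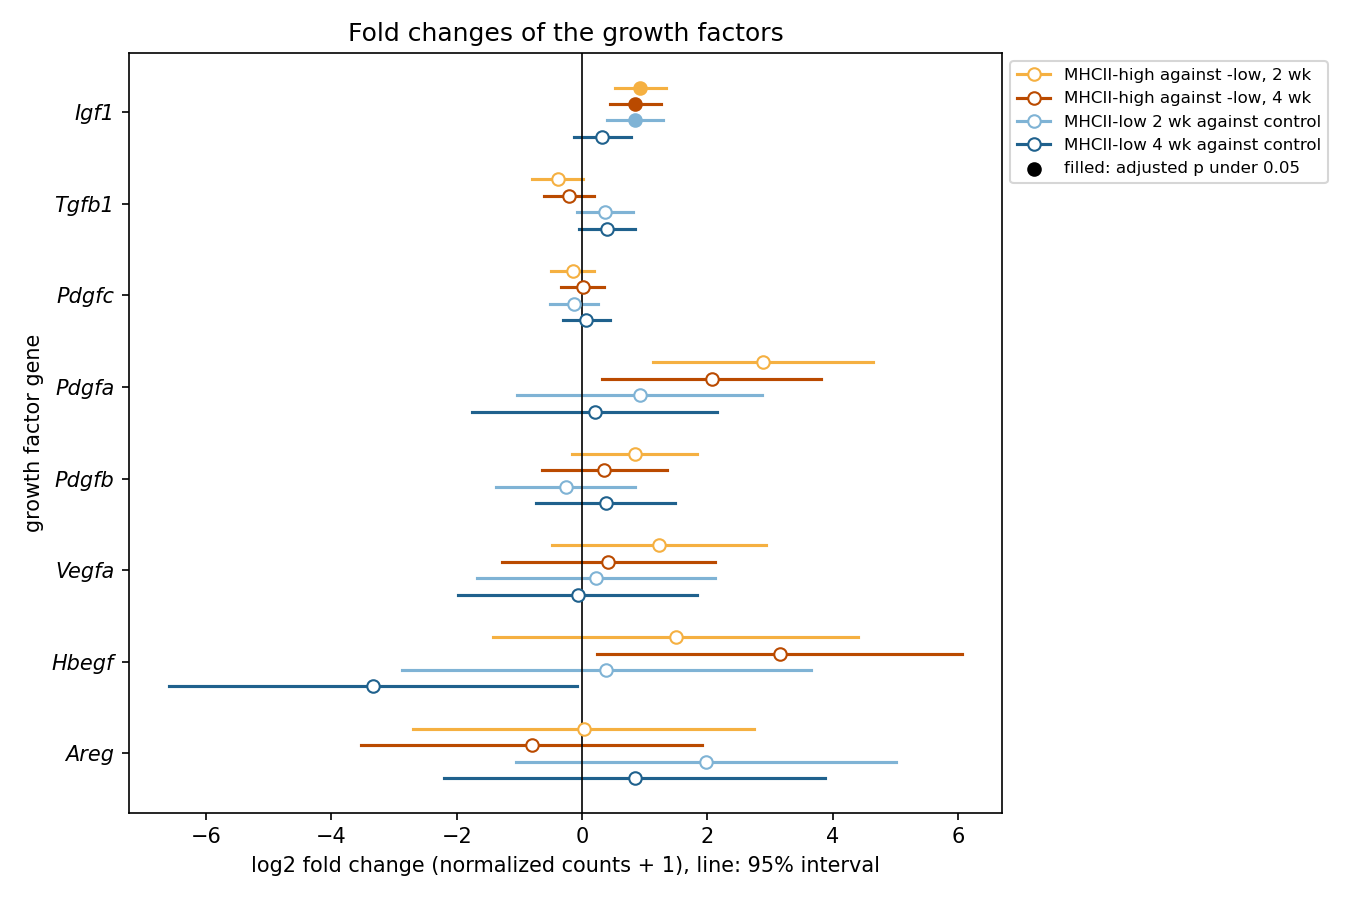
Log2 fold changes of normalized counts + 1 (points) with 95% intervals (lines) for the 8 genes in 4 comparisons; filled points passed an adjusted p of 0.05. Only the Igf1 points for both weeks between MHCII levels and for 2-week MHCII-low cells against controls are filled, and the intervals widen from Tgfb1 and Pdgfc to the low transcripts Hbegf and Areg.

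Counted over the 8 growth factors, few passed in each comparison. Between MHCII levels 1 of 8 rose at 2 weeks (Igf1), where 2.87% of the 17390 genes tested passed, and 1 of 8 at 4 weeks (Igf1), where 2.5% passed. For the mean of both weeks 2 of 8 rose (Igf1 and Pdgfa), against 7.21% of all genes. The median log2 difference of the 8 was 0.88 at 2 weeks, 0.38 at 4 weeks and 0.71 for the mean, beside 0.08, -0.03 and 0.02 over all genes. For MHCII-low cells against controls 1 of 8 rose at 2 weeks (Igf1), where 1.91% of genes passed, and 0 of 8 at 4 weeks, where 0.046% passed. From 2 to 4 weeks 0 of 8 changed in MHCII-low cells (0.857% of genes passed) or in MHCII-high cells (1.07%), with medians of -0.42 and -0.86 for the 8 beside 0.03 and -0.07 over all genes. These comparisons share libraries, so their values are not independent of each other. Among all genes passing, 79.8% were higher in MHCII-high cells at 2 weeks and 69.4% for the mean, and these shares were 22.8% and 36.4% with the GC trend removed, and 70.3% and 54.7% with TMM factors.

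Whether the gap between MHCII levels differed between the weeks was asked by the interaction, the 4-week gap minus the 2-week gap. For Igf1 it was -0.08 ± 0.28 (95% interval -0.65 to 0.49) and for Pdgfa -0.82 ± 1.19 (-3.29 to 1.65), with adjusted p of 1 and 0.99. None of the 8 passed, and 0% of all genes did in limma (987 had an unadjusted p under 0.05). In edgeR 0 genes passed and in DESeq2 60, of which 0 were growth factors.

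Pathway genes were counted in the same way, beside the 2.87%, 2.5% and 7.21% of all genes that passed between MHCII levels at 2 weeks, at 4 weeks and for the mean. Of 18 receptors and co-receptors tested 2 rose at 2 weeks and at 4 weeks, Igf2r and Eng, and for the mean Igf1r as well, with none falling. Their median difference was 0.31 at 2 weeks and 0.15 at 4 weeks. Igf2r, the mannose 6-phosphate receptor that clears IGF-II and binds latent TGF-beta, read 190.2, 286.6 and 379.4 normalized counts in 2-week MHCII-low and 1715.9, 1613.8 and 1688.1 in 2-week MHCII-high cells. It rose by 2.6 ± 0.39 (adjusted p = 0.00042) at 2 weeks and 1.82 ± 0.39 (adjusted p = 0.012) at 4 weeks, the latter with adjusted p up to 0.063 when 1 library was left out. Eng, or endoglin, a TGF-beta co-receptor, rose by 2.09 ± 0.34 for the mean (adjusted p = 0.00039), and its calls at single weeks did not hold under every alternative (adjusted p up to 0.12 at 2 weeks and 0.11 at 4 weeks). Without the library that stands apart, the 4-week calls of Igf2r (1.56 ± 0.42, adjusted p = 0.053) and Eng (1.75 ± 0.51, adjusted p = 0.085) ended.

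Igf1r, the receptor of IGF-1, read 80.9 to 94 normalized counts in 2-week MHCII-low, 82.3 to 95.1 in 4-week MHCII-low and 120.8 to 454.8 (2 weeks) and 158.2 to 349.9 (4 weeks) in MHCII-high cells. The controls, at 112.6 and 186, overlapped with the MHCII-high libraries, unlike those of Igf1. Its mean difference was 1.37 ± 0.36 (adjusted p = 0.02), and the call ended with the mitochondrial rRNA covariate or when 2-week MHCII-high replicate 1 was left out, with adjusted p up to 0.16. The PDGF receptor genes were low: Pdgfra, which is also a fibroblast marker, lay between 20.7 and 216.6 normalized counts, and Pdgfrb between 0 and 95.7.

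Genes that release or activate latent ligands were read against the same shares of all genes (2.87%, 2.5% and 7.21%), most of which were higher. Of 21 tested, 1 rose at 2 weeks (Plau), 2 at 4 weeks (Itgb3 and Itgb8) and 4 for the mean (also Itgav, the fourth, which is outside the naming rule and was chosen after its values were seen), and none fell. Itgb8, the beta subunit of a TGF-beta-activating integrin, read 0, 3.9 and 0 normalized counts in 4-week MHCII-low and 47.9, 29.8 and 46.3 in 4-week MHCII-high cells. Itgb3, another integrin beta subunit that pairs with the Itgav product, read 0, 7.8 and 2.1 against 141.5, 241.6 and 68.2 in the same groups. For the mean of both weeks the fitted differences were 4.19 ± 0.77 for Itgb8 (adjusted p = 0.0012) and 3.81 ± 0.63 for Itgb3 (adjusted p = 0.00037). At 4 weeks alone the Itgb8 call ended under 6 of 14 alternatives (adjusted p up to 0.14), and the Itgav call for the mean ended under 15 of 21. Both calls ended without the library that stands apart (Itgb8 adjusted p = 0.059, Itgav adjusted p = 0.071). The median of the list was 0.23 for the mean. Plau, the urokinase that generates plasmin, rose by 1.85 ± 0.35 at 2 weeks (adjusted p = 0.0042, 0.086 with the mitochondrial rRNA covariate).

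Of 13 TGF-beta signal transducers and response genes, 0 passed between MHCII levels at 2 weeks, 2 rose at 4 weeks (Smad7 and Pmepa1) and 4 for the mean (also Smad3, and Skil, which is outside the naming rule and was chosen after its values were seen), while Tgfb1 itself did not pass. Smad7, an inhibitor of the pathway that TGF-beta induces, read 83.2, 59.8 and 50.1 normalized counts in 4-week MHCII-low and 345.5, 351.4 and 314 in 4-week MHCII-high cells (2.4 ± 0.44, adjusted p = 0.0025). Its controls, at 129.7 and 119.7, lay between these 2 groups. Pmepa1, also induced by TGF-beta, rose by 2.23 ± 0.4 (adjusted p = 0.0025). The calls of Smad3 and Skil for the mean ended under 6 and 15 of 21 alternatives, that of Skil also without the library that stands apart (adjusted p = 0.058). Controls of Smad3 (120.8 and 181.7) and of Skil (10896.9 and 12222.2) overlapped with the MHCII-high libraries. Of the other ligands of the same families 1 of 12 fell for the mean (Ereg, epiregulin, -1.7 ± 0.49, adjusted p = 0.039). That call ended under 10 of 21 alternatives, with adjusted p up to 0.12. None of the 7 IGF binding protein genes tested passed in any of the 8 comparisons.

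**Figure D4:**
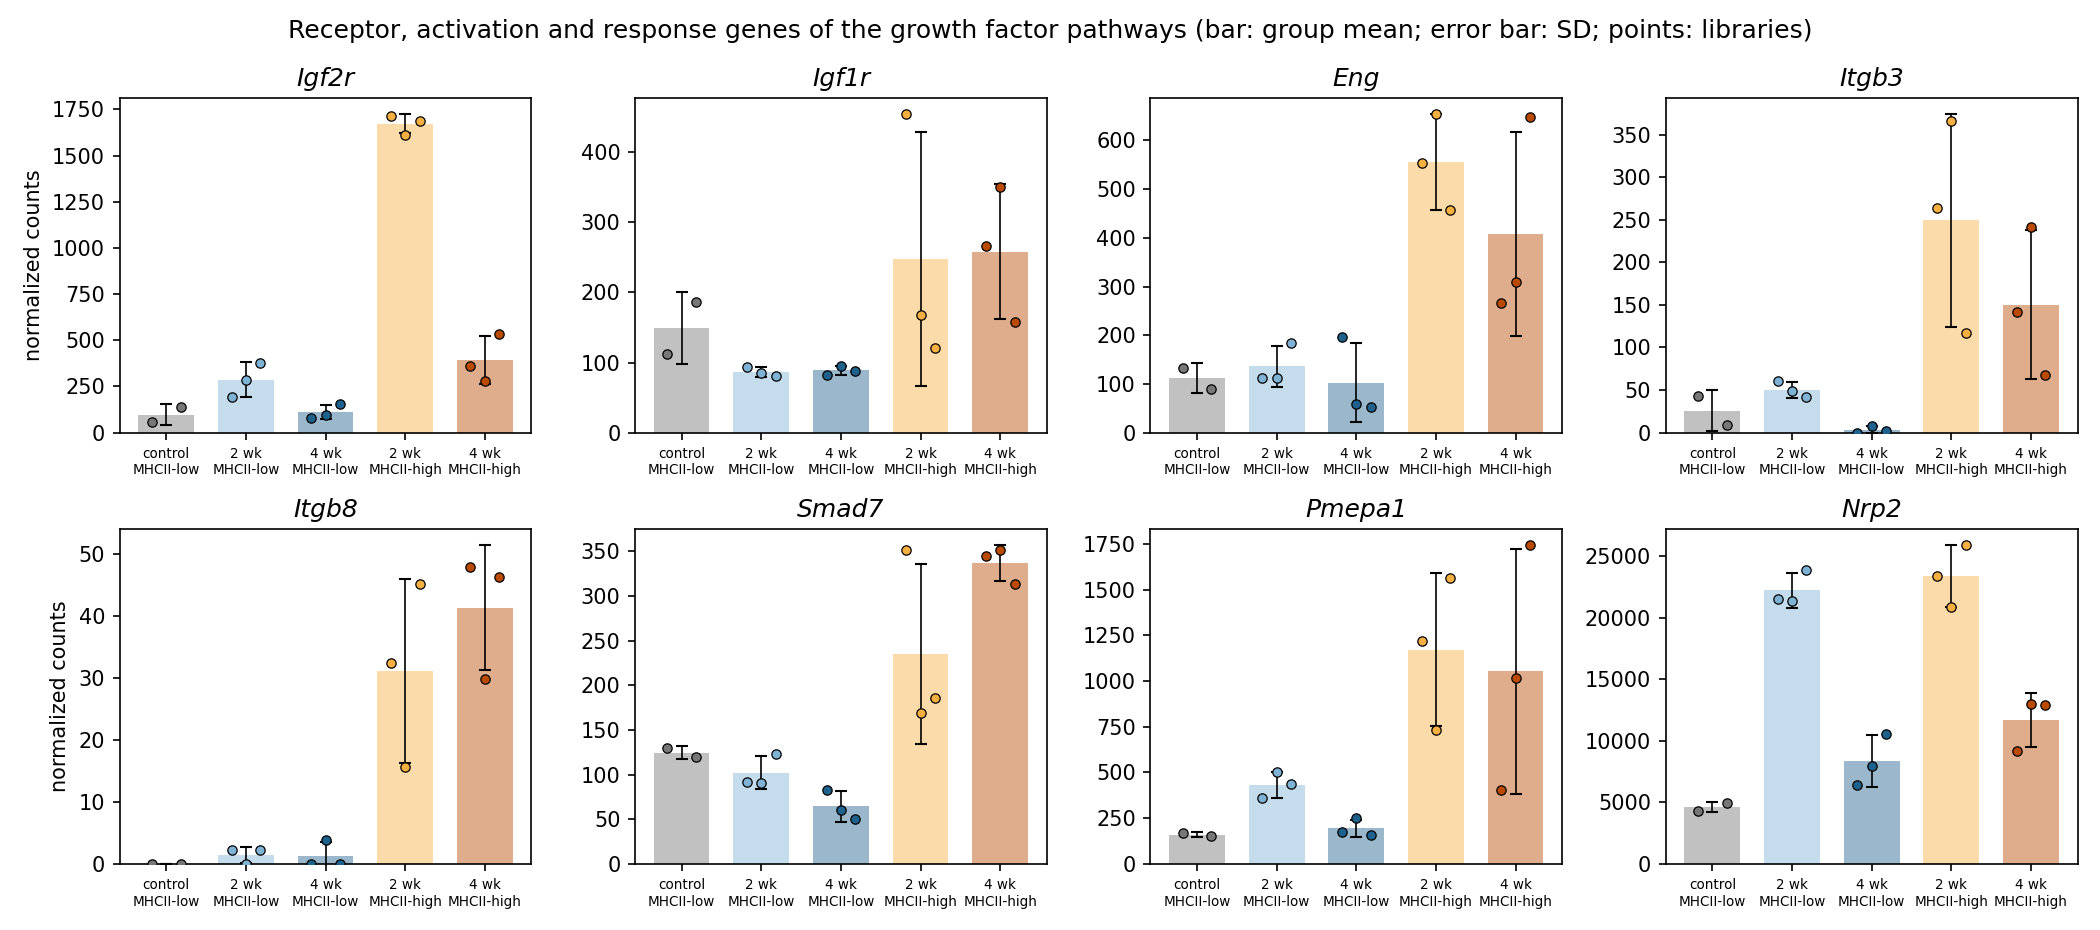
Normalized counts of 8 receptor, activation and response genes in the 14 libraries (points), with group means (bars) and SD (error bars, cut off at 0); each panel has its own axis. Igf2r, Eng, Itgb3, Itgb8, Smad7 and Pmepa1 are higher in MHCII-high cells of the same week, while Nrp2 is high at 2 weeks at both MHCII levels (means 22250 and 23390).

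Other pathway genes passed over time after bleomycin. At 2 weeks 1 of 18 receptor, 1 of 21 release, 1 of 13 TGF-beta response and 1 of 12 other ligand genes rose in MHCII-low cells against controls, where 1.91% of all genes passed. None of these passed at 4 weeks, where only 0.046% of all genes did. In MHCII-low cells 2 weeks after bleomycin against controls, Nrp2, a co-receptor of VEGF family ligands and semaphorins, rose by 2.27 ± 0.2 (adjusted p = 4.5e-07), from 4322.7 and 4923.5 to 21537.4, 21337.8 and 23877.3 normalized counts. Ereg (3.15 ± 0.78, adjusted p = 0.036, up to 0.37 when 1 library was left out), Itgb5 (1.15 ± 0.21, adjusted p = 0.0028) and Tgfbi, a matrix protein induced by TGF-beta (1.17 ± 0.21, adjusted p = 0.0032), rose too. The last 2 lost their call without control replicate 1 (Itgb5, adjusted p = 0.11) or control replicate 3 (Tgfbi, adjusted p = 0.13). From 2 to 4 weeks Nrp2 fell by 1.45 ± 0.18 in MHCII-low cells (adjusted p = 7.8e-05) and by 1.01 ± 0.18 in MHCII-high cells (adjusted p = 0.0077, up to 0.069 under alternatives). From 2 to 4 weeks no gene of these lists rose; 1 of 18 receptor, 3 of 21 release and 1 of 13 TGF-beta response genes fell in MHCII-low cells (0.857% of all genes passed), and 2, 1 and 1 in MHCII-high cells (1.07%). In MHCII-low cells the calls of Adam17, Itgb3, Itgb5 and Tgfbi ended under 6, 8, 4 and 6 of 15 alternatives, those of Itgb3, Itgb5 and Tgfbi among them without 2-week MHCII-low replicate 3. In MHCII-high cells those of Itgb5 and Tgfbi ended under 6 and 8 of 15. Ereg fell by 4.27 ± 0.7 in MHCII-high cells (adjusted p = 0.0047), and Igf2r fell there by 2.14 ± 0.39 (adjusted p = 0.0091).

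Markers of other cells moved with the MHCII level, and so with Igf1 and Pdgfa. The counts of markers stand beside 2.87% of all genes passing between MHCII levels at 2 weeks and 2.5% at 4 weeks. Of 7 dendritic cell markers 3 rose at 2 weeks and 4 at 4 weeks, and their summed level was 104.1 to 171.9 normalized counts in 2-week MHCII-low and 865.8 to 1912 in 2-week MHCII-high libraries, and 76.7 to 185.3 and 1145 to 2115 at 4 weeks. In control libraries it was 248.9 to 249.7. Cd209a was at 0 in the MHCII-low libraries after bleomycin, at most 1.5 in 2-week MHCII-high and 8.5 to 139.6 in 4-week MHCII-high libraries. Of 10 markers of monocyte-derived or interstitial macrophages 7 rose at each week, and their sum, to which Mertk added 23286.1 to 38414.3 in each library, was 35550 to 49320 against 59320 to 73920 at 2 weeks and 30770 to 36080 against 43700 to 47990 at 4 weeks, with 28200 to 31550 in controls. Among 10 alveolar macrophage markers 5 fell at 2 weeks and 3 at 4 weeks, with sums of 589800 to 682100 against 389500 to 465700 at 2 weeks and 480300 to 587800 against 420800 to 470300 at 4 weeks. To these sums Chil3 alone added 165183.2 to 303546.8 per library.

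Lymphocyte markers summed to 66.7 to 136.5 in 2-week MHCII-low and 270.2 to 874.1 in 2-week MHCII-high libraries, and 17.1 to 273.5 and 393.1 to 844.1 at 4 weeks (1 of 5 tested rose at 2 weeks and 3 of 5 at 4 weeks, beside 2.87% and 2.5% of all genes passing). Epithelial markers rose for 3 of 8 at 2 weeks and 1 of 8 at 4 weeks, with sums in MHCII-low and MHCII-high libraries of 9724 to 16490 and 10720 to 20770 at 2 weeks and 24980 to 32370 and 11600 to 19740 at 4 weeks. Within these sums single markers went opposite ways. At 4 weeks Scgb1a1 read 19013.1 to 24712.3 in MHCII-low and 3332.5 to 6834.8 in MHCII-high libraries. Sftpc read 202.9 to 594.3 and 1568.9 to 6258.3 in the same groups. At 2 weeks Scgb1a1 overlapped between MHCII levels, and Sftpc read 504.8 to 1763.1 and 2746.3 to 4801.2. The mast cell, basophil and innate lymphoid list summed to 13.3 to 74.9 and 185.2 to 301.1 at 2 weeks and 5.3 to 29.4 and 301.8 to 451.9 at 4 weeks, with 1 of 4 rising at each week. Most of the MHCII-high sums came from Il1rl1, at 153.8 to 279.4 at 2 weeks and 301.8 to 384.4 at 4 weeks. Its MHCII-low libraries read 4.5 to 47.8 and 0 to 9.4. The mast cell and basophil genes Cpa3, Mcpt8, Ms4a2 and Fcer1a read at most 65.9 in MHCII-high libraries. None of the fibroblast, endothelial, platelet, neutrophil or eosinophil markers passed between MHCII levels in limma at 2 or 4 weeks, and Prg2 was at 0 in the 14 libraries. Endothelial sums were 2997 to 4862 and 3933 to 6806 at 2 weeks and 1767 to 2801 and 3280 to 4286 at 4 weeks, of which Vwf alone added 1534.2 to 4731.1 per library. The sums of 2 other lists were low: fibroblast markers came to 21.9 to 861 and platelet markers to 42.5 to 195.6 normalized counts. Between 2-week MHCII-low cells and controls, where Igf1 also rose and 1.91% of all genes passed, 6 of 10 markers of monocyte-derived or interstitial macrophages rose, while 1 of 10 alveolar macrophage markers rose and 1 fell, and 2 of 8 epithelial and 1 of 6 endothelial markers rose. The part of these cells in the growth factor differences was not tested.

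The growth factors did not share 1 pattern over the 14 libraries. The highest Pearson correlation of log2 values between any 2 of them was 0.73, for Igf1 and Pdgfa, and the lowest was -0.68, for Pdgfc and Hbegf. Among 9993 genes with a mean of at least 100 normalized counts (9994 for Areg and Hbegf), Colec12 was one of those most like Igf1 (r = 0.97). Those most like Pdgfa were Tpcn1 (0.877), Gpr35 (0.874) and Col14a1 (0.866), and those most like Tgfb1 were Ssbp4 (0.918), Tmsb10 (0.908) and Rhog (0.899). For Pdgfc they were Gm15635 (0.904), Zbtb4 (0.864) and Crim1 (0.852), and for Pdgfb Zfp553 (0.856), Alg13 (0.843) and Fam133b (0.804). For Vegfa they were Timp3 (0.881), Plekha3 (0.874) and Etv6 (0.871), for Hbegf Ergic2 (0.858), Lrrc75a (0.847) and Arhgap6 (0.813), and for Areg Zpr1 (0.846), Klhl6 (0.834) and Mnat1 (0.832). The points share libraries, depth and groups, so these values describe likeness in these 14 libraries.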

How the data were processed

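Per the file headers, the authors deposited a normalized count for each gene in each of 14 libraries, a signal made from gene counts, with each gene's GC percent and exon length. Per the submitters' processing notes, STAR, DESeq2 and the build mm10 were used, without roles or versions. Normalized counts were taken as whole multiples of the worth of 1 read (0.39 to 2.24). This gave whole reads within the rounding of 0.05 for 99.95% to 100% of nonzero values up to a set number of reads. Higher values, among them those of Igf1 and Tgfb1, were outside this check. The 17390 genes that reached 10 normalized counts in 2 or more libraries entered limma 3.58.1 in R 4.3.3 on log2(value + 1), which understates changes of low genes, with 1 coefficient per group. P-values were adjusted by Benjamini-Hochberg within each of 8 comparisons, at a threshold of 0.05. Where no tool is named, a value is from limma. edgeR 4.0.16 and DESeq2 1.42.0 on recovered reads were alternatives, with other filters, a pseudocount of 8, TMM factors, the mitochondrial rRNA share, GC trend removal (a spline with 5 degrees of freedom), a replicate block and leaving out each library. The fit was tested on simulated data. Members and lists were chosen with earlier results of these data known. Named were the 8 members, up to 3 genes with the smallest p per list and comparison, and the 3 genes most correlated with each member. Some genes that meet this rule are not reported here. The labels give no batch, and no molecular identifiers are described, so the intervals of single counts cover counting error only.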

Additional observations from a re-analysis of the deposited data

How the results depend on the processing

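Of the values of single growth factors, 1004 recomputed ones kept their side of the threshold, most of them values that had not passed. A call was lost in 18 and gained in 10, and none that had passed changed direction. Between MHCII levels Igf1 lost its call under 3 of 15 alternatives at 2 weeks, 6 of 15 at 4 weeks and 0 of 21 for the mean. For 2-week MHCII-low cells against control it did so under 8 of 14, and Pdgfa for the mean under 1 of 21. For the count of all genes passing, in the order of the gap between MHCII levels (2 weeks, 4 weeks, mean), bleomycin MHCII-low cells over control (2 weeks, 4 weeks) and change over time (MHCII-low, MHCII-high), the base values were 499, 434, 1254, 332, 8, 149 and 186. DESeq2 gave 1055, 911, 2122, 665, 74, 320 and 638, and 60 for the interaction. With no filter on low values there were 316 at 2 weeks and 282 at 4 weeks between MHCII levels, 65 for 4-week MHCII-low cells against control and 103 for MHCII-high cells over time. edgeR gave 2 for 4-week MHCII-low cells against control and 112 for MHCII-high cells over time. The mitochondrial rRNA covariate gave 207 at 2 weeks, 500 for the mean, and 213 and 2 for MHCII-low cells against control at 2 and 4 weeks. Removal of the GC trend gave 1658 at 2 weeks, 1904 for the mean, 857 and 36 against control and 407 for MHCII-high cells over time, and moved the median of all genes by up to 0.33. Leaving out 1 library gave 203 to 455, 266 to 480, 853 to 1399, 127 to 308, 1 to 8, 95 to 138 and 64 to 299, and 0 to 2 for the interaction.

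For the count of growth factors passing at 2 weeks between MHCII levels, a pseudocount of 8 and DESeq2 gave 2 (Igf1 and Pdgfa), removal of the GC trend gave another 2 (Pdgfc and Tgfb1, both lower, with Igf1 lost), the mitochondrial rRNA covariate 0, and leaving out 1 library 0 to 1. At 4 weeks no filter, edgeR and the covariate gave 0, DESeq2 2, and leaving out 1 library 0 to 2. For the mean the covariate gave 1, DESeq2 3 (with Hbegf) and leaving out 1 library 2 to 3. For 2-week MHCII-low cells against control no filter, edgeR, the covariate and leaving out any 1 library gave 0. The cause of these changes was not tested.

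The labels do not say what the replicate numbers mark. Same-numbered MHCII-high and MHCII-low libraries had deviations correlated at 0.11, 0.07 and 0.02 at 2 weeks and 0.01, 0.03 and 0.02 at 4 weeks. With libraries of other numbers the mean correlations were -0.06, -0.02 and -0.01 at 2 weeks and -0.01, -0.02 and -0.01 at 4 weeks. These weak correlations cannot decide whether same-numbered libraries came from the same animals. With the replicate block the counts of genes passing were 487, 429, 1207, 416, 16, 171, 202 and 0 for the interaction, and 2 growth factors passed at 2 weeks (Pdgfa, 2.89 ± 0.72, adjusted p = 0.036, and Igf1). Hbegf and Areg rested on 0 to 156 reads per library and varied widely within groups, and each comparison with controls has 2 control libraries.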
